A study of Mus musculus with 16 samples.

Results

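The BCL2 family decides whether a cell opens the outer membrane of its mitochondria, and 10 of its genes were followed here through hearts targeted for AKT1, AKT2 or both kinases. They are the pore formers Bax, Bak1 and Bok, the protectors Bcl2, Bcl2l1 and Mcl1, and the BH3-only proteins Bcl2l11, Bad, Bid and Bbc3. All array probes whose RefSeq accession maps to these genes were taken, which gave 19 of the 56605 distinct probes and 10 of the 22911 gene symbols on the array. Of the 19 probes, 16 passed the filter on dim probes, and all 10 genes could be tested.

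RNA came from the heart apex of male C57Bl/6 mice with 1 array per mouse and 4 mice in each of 4 groups. The control mice carried a heterozygous MHC-mercremer transgene, a tamoxifen-inducible Cre recombinase that the MHC promoter limits to cardiomyocytes, and no floxed allele. AKT1 KO mice carried the same transgene and were homozygous AKT1 flox/flox, AKT2 KO mice were homozygous AKT2 flox/flox, and AKT1+AKT2 DKO mice (DKO) were homozygous for both floxed genes. Every group, control included, was 3 months old, received 500 µg hydroxytamoxifen per day in 5 injections and was studied 21 days after induction, although the sample titles call the hearts untreated. Other cells of the heart keep their Akt genes in this model, so a tissue level mixes targeted cardiomyocytes with untargeted cells.

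In healthy cells the protectors hold Bax and Bak1 in check at the mitochondrial outer membrane. BH3-only proteins, which carry a single short binding motif, are made or activated under stress and bind the protectors, and some of them also activate Bax and Bak1 directly. Once Bax or Bak1 forms a pore, cytochrome c leaves the mitochondrion and caspases are activated. AKT kinases act on this family at several points: they phosphorylate Bad, which 14-3-3 proteins then hold in the cytosol, and they keep FoxO transcription factors, known activators of Bcl2l11 and Bbc3, out of the nucleus. The heart muscle cell divides little after birth, and the balance of this family has been studied there in ischaemia and heart failure.

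The promoters of 3 members are shown because each holds a motif of a factor with a known tie to the family, p53 for Bax and FoxO for Bcl2l11 and Bbc3. RefSeq windows of 250 bases before a transcript start (GRCm38.p6, 16 windows for the 10 members, all members matched) were searched on both strands for the FoxO core GTAAACA, the GC box GGGCGG and the p53 half-site, and no match overlapped a match of another motif. The first sequence is chr7:45466899-45467148 on the minus strand with the p53 half-site in capitals, which starts 201 bases before the transcript start. The second is chr2:128125788-128126037 on the plus strand with the FoxO core in capitals, 227 bases before the start. The third is the stretch chr7:16310084-16310110 on the plus strand around the FoxO core, which lies on the reverse strand 167 bases before a start inside the Bbc3 gene.
Bax: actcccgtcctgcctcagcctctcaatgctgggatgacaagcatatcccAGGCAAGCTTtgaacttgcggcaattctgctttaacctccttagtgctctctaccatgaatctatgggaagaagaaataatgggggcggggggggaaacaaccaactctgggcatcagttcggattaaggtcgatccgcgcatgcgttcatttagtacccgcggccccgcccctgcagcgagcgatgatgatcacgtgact
Bcl2l11: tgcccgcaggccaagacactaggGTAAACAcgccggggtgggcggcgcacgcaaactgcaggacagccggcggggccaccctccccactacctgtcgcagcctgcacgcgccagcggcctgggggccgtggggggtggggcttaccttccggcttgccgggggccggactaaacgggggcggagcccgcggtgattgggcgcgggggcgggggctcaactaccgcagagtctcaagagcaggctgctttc
Bbc3: ctggcgggttTGTTTACaaacaatggg
The FoxO core was found in 2 of the 16 member windows, and 3.17% of all 32851 windows hold it. The p53 half-site was found in 1 member window and in 7.13% of all windows. The GC box lay in 11 member windows, belonging to 8 members, and in 32.7% of all windows. These matches describe letters and not binding.

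Levels below are log2 of the background-subtracted spot intensity minus the 75th percentile of the same array, so 0 marks a probe at that percentile and a difference of 1 is a doubling; levels of different probes are not set against each other. The 75th percentile lay between 492.1 and 809.4 intensity units, and 43.1% to 54.0% of probes lay well above background on an array. A difference was called when its adjusted p in limma, a linear model fitted to all 13725 genes at once and corrected by the Benjamini-Hochberg method, was under 0.05. Akt2 fell by 2.37 in AKT2 KO and by 2.00 in DKO, while the Akt1 change was 0.10 in AKT1 KO and -0.02 in DKO. Whether an Akt1 probe reads a deleted exon is unknown here, so the Akt1 level is no check of the labels. All 9 cardiomyocyte markers passed the filter on dim probes. Each group always lay in 1 column of the slide, so column and group cannot be told apart. The 4 arrays of a group came from different mice, 2 on each of the 2 slides.

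The DKO hearts were not alike. DKO replicate 3 was the array farthest from the other 3 of its group in 12.7% of all genes, against 0.313% to 0.823% for the other DKO arrays, by Dixon's measure (the gap to the nearest array over the group's range) at its 95% critical value. The same held for AKT1 KO replicate 1 in 5.67% of genes. In DKO replicate 3 the summed level of red cell markers was 8.10, against 8.75 to 9.17 in the other DKO hearts. Its endothelial sum was 4.60 against 5.03 to 5.11, and its mesothelial sum 1.202 against 0.029 to 0.082. Results are therefore also given without that heart.

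Cell type markers moved with the DKO group as well, in a comparison where 24.4% of all genes were called higher and 21.2% lower. All 9 cardiomyocyte markers were called lower in DKO than in control, with a summed level of 11.47 to 11.74 against 11.93 to 12.15. All 7 fibroblast markers were called higher, with sums of 8.001 to 8.27 against 7.35 to 7.45, and 4 of 7 macrophage markers were called higher, with sums of 4.89 to 5.37 against 4.67 to 4.83. Of the 3 tested atrial markers 1 was called higher, Nppa, the natriuretic peptide gene that stressed ventricles also express, by 2.49 in DKO and by 1.47 in AKT1 KO (limma adjusted p = 5.59e-06 and 0.0168). The atrial sum was 9.10 to 9.45 in DKO and 8.04 to 8.47 in AKT1 KO, against 6.48 to 7.13 in control. Sums are taken before log2, so the brightest marker weighs most. Mean Nppa was 6.79 in control and 9.28 in DKO, close to the atrial sum, and mean Myl4 was 0.52 and 1.14. Of the 5 endothelial markers 1 was called lower, and of the 5 smooth muscle and pericyte markers 1 was called higher. Without DKO replicate 3, where 51.1% of all genes were called, 3 smooth muscle and pericyte markers were called higher. The endothelial markers then had 1 called higher and 1 lower. The counts of cardiomyocyte, fibroblast and macrophage markers stayed the same. The 2 tested adipocyte markers split, with 1 called higher and 1 lower. No neutrophil, lymphocyte, red cell or mesothelial marker was called in DKO against control. Among these, Cd79a of B cells and Upk3b of the mesothelium were never well above background. The part of these shifts in the changes of the BCL2 family was not tested. In such tissue RNA, fewer cells of a type and less RNA per cell cannot be told apart.

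In DKO hearts 6 of the 10 family members were higher than in control, and in the single knockouts none passed the threshold. DKO hearts had more Bax, Bok, Bcl2, Bcl2l1, Bid and Bbc3 transcript, by 0.56 to 1.13 on the log2 scale, and no member was called lower. The rise took in death-promoting and protective members alike: 2 pore formers, 2 protectors and 2 BH3-only genes. This count has to be read against a wide response, since 45.6% of all 13725 genes were called in this comparison, 24.4% higher and 21.2% lower. The median change was 0.56 over the 10 members and 0.02 over all genes. In 4 members (Bax, Bok, Bcl2, Bcl2l1) the 4 DKO values lay above all 4 control values, and 44.4% of all genes had groups that did not overlap. Without DKO replicate 3, limma called 8 members at a background of 51.1%: 7 were higher, now with Mcl1, and Bad was lower.

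In AKT1 KO against control limma called 0 of 10 members, with 0.794% of all genes called. Only Bcl2 had an unadjusted p under 0.05 there. In AKT2 KO limma also called 0 of 10, with 0.131% of all genes called and 0 members at an unadjusted p under 0.05. Changes ranged from -0.23 to 0.56 in AKT1 KO and from -0.12 to 0.19 in AKT2 KO. The intervals still leave room: for Bcl2l1 the 95% confidence interval in AKT1 KO ran from -0.92 to 0.47, and for Bax, the most narrowly measured member, from -0.29 to 0.07. The fit takes the spread from all 4 groups, and the SE of Bcl2l1 in AKT1 KO was 0.32 with DKO replicate 3 and 0.09 without it.

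**Figure D1:**
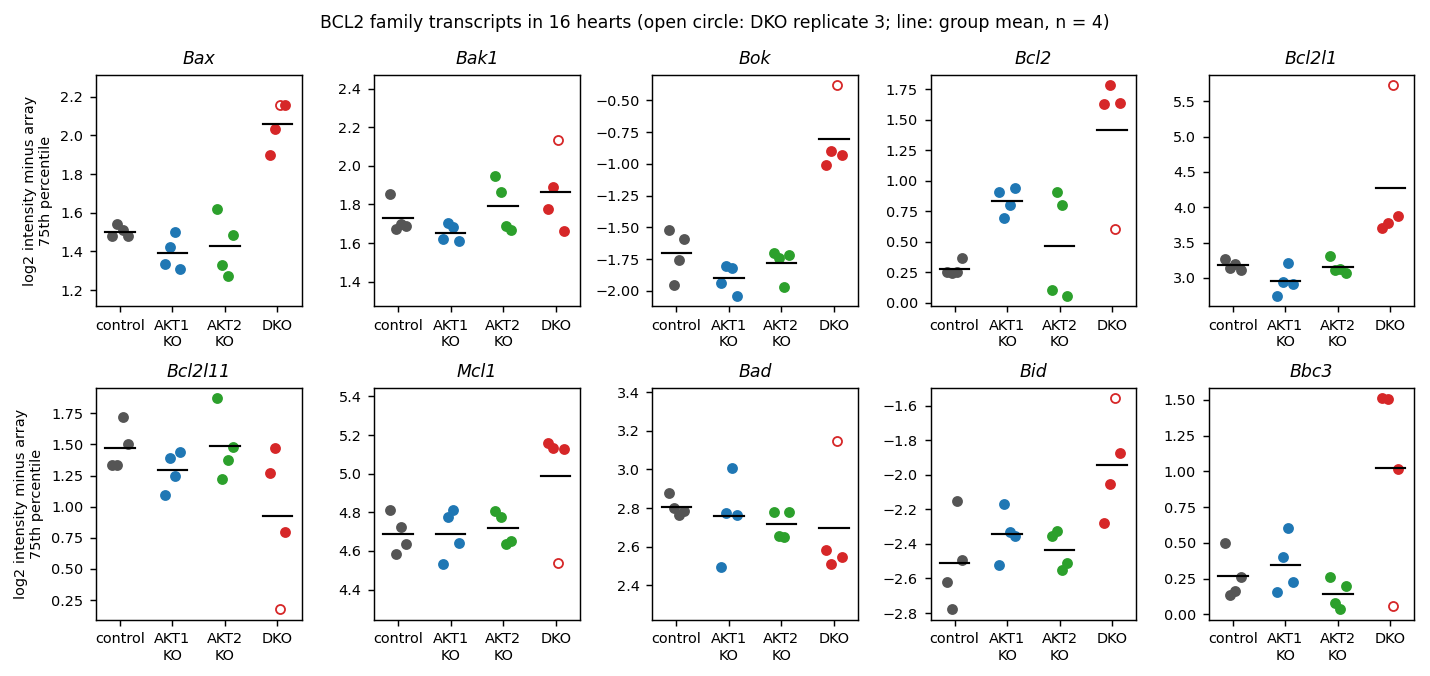
Level of each gene (log2 intensity minus the array's 75th percentile, vertical axis) in the 16 hearts by group, with a line at the group mean and DKO replicate 3 as an open circle. DKO values of Bax, Bok, Bcl2 and Bcl2l1 lie above every control value, and the open circle sits away from the other DKO hearts in Bok, Bcl2, Bcl2l1, Mcl1 and Bad.

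**Figure D2:**
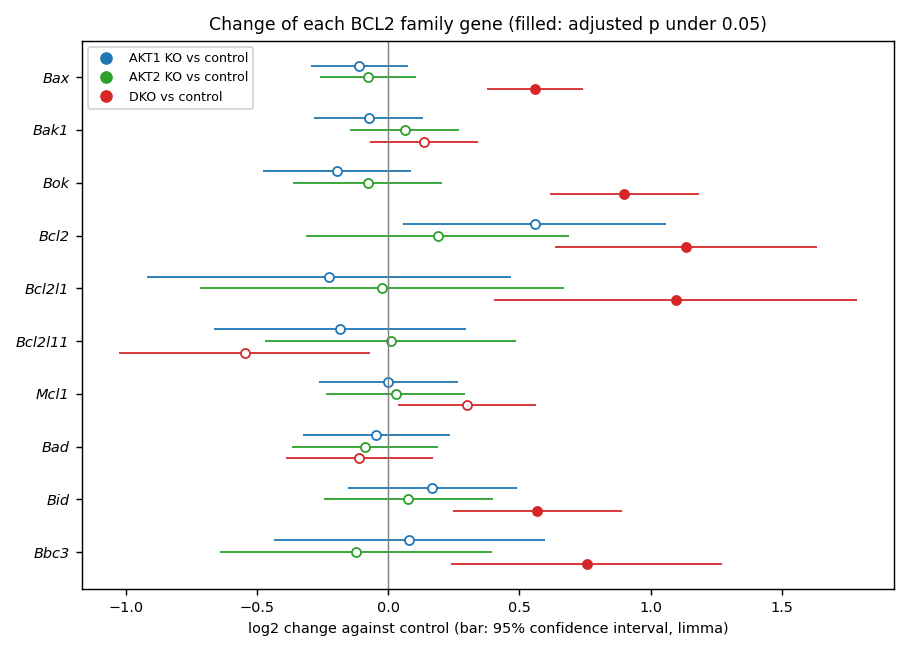
Change of each gene against control on the log2 scale (horizontal axis) in AKT1 KO, AKT2 KO and DKO, with 95% confidence intervals from limma; filled points have an adjusted p under 0.05. All 6 filled points belong to DKO, and the widest intervals are those of Bcl2l1.

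Among the pore formers, Bax rose with little spread. Bax, which moves from the cytosol into the outer membrane to form the pore, read 1.48, 1.54, 1.51 and 1.48 in the control hearts. In AKT1 KO it read 1.34, 1.42, 1.501 and 1.31, in AKT2 KO 1.62, 1.33, 1.27 and 1.48, and in DKO 1.90, 2.03, 2.16 and 2.16. The lowest DKO heart stood above the highest heart of every other group, while the other 3 groups overlapped. The DKO change was 0.56 (SE 0.09, limma adjusted p = 0.000116), a 1.47-fold rise. It was 0.45 within slide 1 and 0.66 within slide 2, and a second Bax probe gave 0.63 (SE 0.09), one of the 40% of kept probes called in this comparison. The Bax change without DKO replicate 3 was 0.53 (adjusted p = 0.000207).

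Bok, a relative of Bax and Bak1 that can act without them and that is known to be degraded by the proteasome, had the smallest adjusted p of the family. Its control values were -1.52, -1.95, -1.75 and -1.59. AKT1 KO gave -1.94, -1.81, -1.82 and -2.04, AKT2 KO gave -1.70, -1.74, -1.97 and -1.72, and DKO gave -1.01, -0.90, -0.38 and -0.93. Again the DKO hearts stood above all others, with replicate 3 the highest. The change was 0.90 (SE 0.13, limma adjusted p = 8.33e-05), 0.78 within slide 1 and 1.02 within slide 2, and 0.76 (adjusted p = 4.14e-05) without DKO replicate 3.

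Bak1, which sits in the outer membrane from the start, was not called. Its control values ran from 1.67 to 1.85 and its DKO values from 1.66 to 2.13, so the groups overlapped. The change was 0.14, with a 95% confidence interval of -0.07 to 0.34 (limma adjusted p = 0.263), and without DKO replicate 3 it was 0.05 (adjusted p = 0.636). The interval over all 4 hearts ends below the one of Bok, 0.62 to 1.18, though the difference between the genes was not tested.

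Among the protectors, Bcl2 had the largest change of the family. Bcl2, which binds Bax-type and BH3-only proteins at mitochondria and the endoplasmic reticulum, read 0.25, 0.24, 0.25 and 0.37 in control. It read 0.90, 0.70, 0.80 and 0.94 in AKT1 KO, 0.11, 0.91, 0.80 and 0.06 in AKT2 KO, and 1.63, 1.78, 0.61 and 1.64 in DKO. All AKT1 KO and DKO hearts exceeded every control heart, and AKT2 KO split, with replicates 2 and 3 high and replicates 1 and 4 below control; each slide holds 1 heart of either kind. On the second Bcl2 probe replicates 2 and 3 were again high, at 0.39 and 0.35, while replicates 1 and 4, at -0.49 and -0.25, lay within the control range of -0.61 to -0.21. The summed level of the atrial markers, in which Nppa weighs most, was likewise 7.59 and 7.82 in AKT2 KO replicates 2 and 3. In replicates 1 and 4 it was 6.59 and 6.39, and its part was not tested. The DKO change was 1.13 (SE 0.23, limma adjusted p = 0.00123), a 2.20-fold rise, 1.46 within slide 1 and 0.81 within slide 2, and without DKO replicate 3 it was 1.40 (adjusted p = 2.00e-05).

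Bcl2 was also the one member whose AKT1 KO and control hearts did not overlap, a property of 9.19% of all genes. That change, 0.56 (SE 0.23), had a limma adjusted p of 0.564 and was not called. It was called when the fit held only the 2 groups compared (adjusted p = 0.00943) and with array quality weights (0.57, adjusted p = 0.0325). The second Bcl2 probe gave 0.57 in AKT1 KO and 1.14 in DKO. Group means of Bcl2 rose from 0.28 in control through 0.47 in AKT2 KO and 0.84 in AKT1 KO to 1.41 in DKO, but of the neighbouring steps in this order limma called none. DKO against AKT1 KO gave 0.58 (adjusted p = 0.0559), which without DKO replicate 3 was 0.84 (adjusted p = 0.00116) and without AKT2 KO replicate 2 was 0.58 (adjusted p = 0.0481).

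Bcl2l1, the gene of the protector Bcl-xL, read 3.27, 3.14, 3.19 and 3.11 in control and 3.71, 3.78, 5.73 and 3.88 in DKO. AKT1 KO hearts ran from 2.75 to 3.21 and AKT2 KO hearts from 3.07 to 3.31. All 4 DKO hearts lay above every other heart, and replicate 3 exceeded the mean of the other DKO hearts by 1.94. The DKO change was 1.10 (SE 0.32, limma adjusted p = 0.0128), 0.54 within slide 1 and 1.65 within slide 2, which holds replicate 3. Without that heart it was 0.61 (SE 0.10, adjusted p = 0.000151). The call was lost when the fit held only DKO and control (adjusted p = 0.0733).

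Bcl2l1 had 5 probes, more than any other member, and all of them had their highest value in DKO replicate 3. On the 3 kept probes that heart exceeded the mean of the other DKO hearts by 1.83 to 2.11. The other 2 probes were too dim for such a difference: one was well above background in 2 of the other 3 DKO hearts, and the dimmest on no array but that of replicate 3. The 3 kept probes had DKO changes of 1.10, 0.93 and 1.05, with limma adjusted p over all kept probes of 0.0154, 0.0311 and 0.0380.

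**Figure D3:**
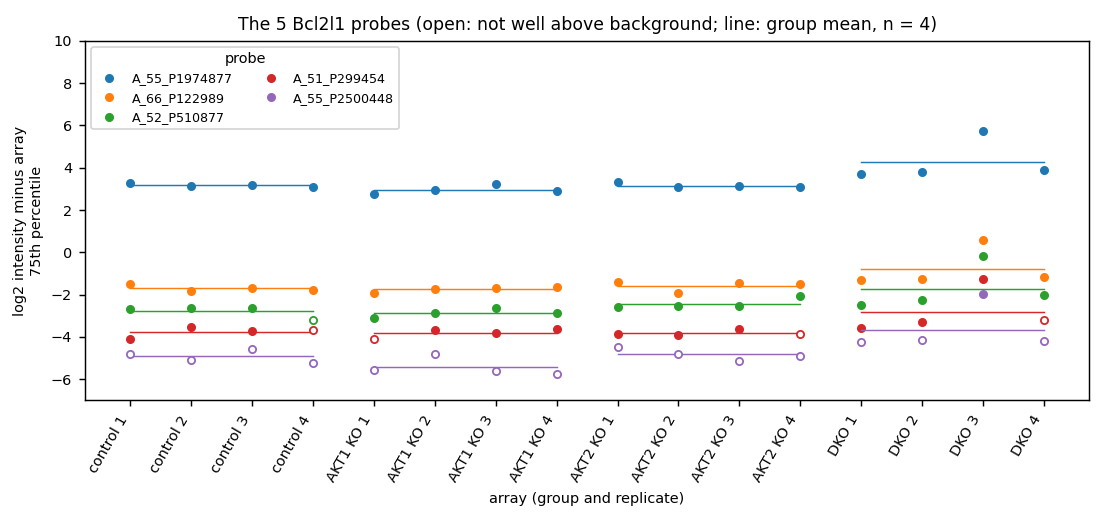
Level of the 5 Bcl2l1 probes (log2 intensity minus the array's 75th percentile, vertical axis) on each of the 16 arrays (horizontal axis), with open points where the probe was not well above background and lines at group means. All 5 probes have their highest value on the array of DKO replicate 3, and on the 3 kept probes it lies 1.83 to 2.11 above the mean of the other DKO hearts.

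Mcl1, a short-lived protector that heart muscle needs, read 4.81, 4.59, 4.72 and 4.63 in control and 5.16, 5.13, 4.54 and 5.13 in DKO. DKO replicate 3 lay below all control hearts and the other 3 DKO hearts lay above them. Over 4 hearts the change was 0.30 (SE 0.12, limma adjusted p = 0.0603), and it stayed uncalled in 10 of the 15 processing alternatives. It was called higher with slide as a block (adjusted p = 0.0352), with slide and row as a block (0.0433) and with a trended robust prior (0.0488). The same held within slide 1 (0.446, limma adjusted p = 0.0106) and with array quality weights (0.44, adjusted p = 1e-04). Without replicate 3 the Mcl1 change was 0.45 (SE 0.08, adjusted p = 0.000344). AKT1 KO hearts (4.53 to 4.81) and AKT2 KO hearts (4.64 to 4.81) overlapped with control.

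Of the 4 BH3-only genes, Bid and Bbc3 rose in DKO, and Bcl2l11 and Bad were not called. Bid, whose protein joins the death receptor route to mitochondria after caspase cleavage, read -2.62, -2.78, -2.15 and -2.49 in control and -2.28, -2.05, -1.56 and -1.88 in DKO. In DKO 3 of 4 hearts exceeded the highest control heart. The change was 0.57 (SE 0.15, limma adjusted p = 0.00657), 0.53 within slide 1 and 0.60 within slide 2. Leaving out DKO replicate 3 gave 0.44 (adjusted p = 0.0158).

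Bbc3, the gene of PUMA, a p53 and FoxO target that binds all protectors, read 0.50, 0.13, 0.16 and 0.26 in control and 1.51, 1.51, 0.06 and 1.01 in DKO. Here replicate 3 lay below every control heart while the other 3 DKO hearts lay above them. The change was 0.76 (SE 0.24, limma adjusted p = 0.0196), 1.19 within slide 1 and 0.32 within slide 2. Without replicate 3 it was 1.08 (SE 0.14, adjusted p = 2.63e-05). The call was lost without DKO replicate 1 (0.59, adjusted p = 0.0639), without DKO replicate 2 (0.59, adjusted p = 0.0650) and in a fit of only DKO and control (adjusted p = 0.0869).

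Bcl2l11, the gene of BIM and the other known FoxO target, did not rise. It read 1.34, 1.34, 1.72 and 1.51 in control and 1.27, 1.47, 0.18 and 0.80 in DKO, with 3 of the 4 DKO hearts below all controls, replicate 1 only just and replicates 3 and 4 clearly. The change was -0.55 (SE 0.22, limma adjusted p = 0.0593), 0.03 within slide 1 and -1.13 within slide 2. It was called lower without DKO replicate 1 (-0.66, adjusted p = 0.0366) or DKO replicate 2 (-0.73, adjusted p = 0.0146), and with quantile normalization or the authors' values (both -0.57, adjusted p = 0.0471 and 0.0476). The Bcl2l11 change without DKO replicate 3 was -0.30 (adjusted p = 0.163). The other 2 kept Bcl2l11 probes disagreed, with -0.76 and 0.03, and the remaining probe was well above background on 0 of 16 arrays.

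Bad, which AKT phosphorylates, read 2.88, 2.80, 2.76 and 2.79 in control and 2.58, 2.51, 3.15 and 2.54 in DKO. Replicate 3 exceeded all control hearts and the other 3 DKO hearts fell below them. The change was -0.11 over 4 hearts (95% confidence interval -0.39 to 0.17, limma adjusted p = 0.522) and -0.26 without replicate 3 (adjusted p = 0.0307). With array quality weights it was also called lower (-0.25, limma adjusted p = 0.00479), and 14 of the 15 processing alternatives left it uncalled.

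DKO replicate 3 thus carried its own profile of the family. It was the highest DKO heart for Bok, Bcl2l1, Bad, Bid and Bak1, and the lowest for Bcl2, Bcl2l11, Mcl1 and Bbc3. Against the mean of the other DKO hearts it differed by 1.94 in Bcl2l1, -1.29 in Bbc3, -1.07 in Bcl2 and -1.001 in Bcl2l11. In Bax it was level with replicate 4 and 0.13 above the mean of the others. In 5 of the 10 members this heart met Dixon's measure, as it did in 12.7% of all genes.

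**Figure D4:**
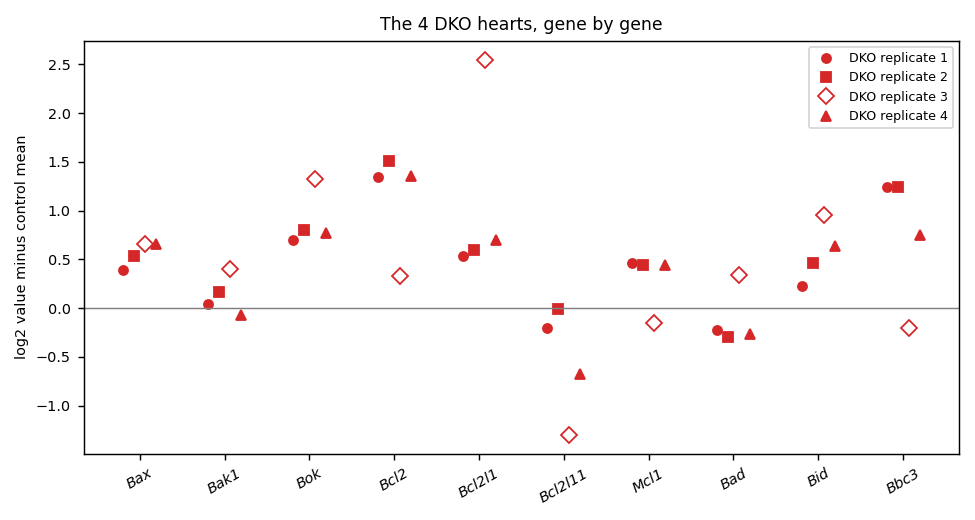
Difference between each DKO heart and the control mean (log2 scale, vertical axis) for the 10 genes, with replicate 3 as open diamonds. The other 3 DKO hearts lie close together in Bok, Bcl2, Bcl2l1, Mcl1 and Bad, and replicate 3 differs from them most in Bcl2l1.

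The DKO hearts were also set against each single knockout, comparisons that share the DKO arrays with each other and with the one above. Against AKT1 KO limma called 5 members higher (Bax 0.67, Bok 1.09, Bcl2l1 1.32, Bid 0.40, Bbc3 0.67) and none lower, with 47% of all genes called and 26.7% called higher. That count was 3 without AKT1 KO replicate 1 and also without AKT1 KO replicate 4 (45.1% and 41.2% of all genes called). In each case Bid (limma adjusted p = 0.103 and 0.0747) and Bbc3 (0.0800 and 0.0753) were lost. Leaving out DKO replicate 4 also cost both calls and added Bak1 (0.28, adjusted p = 0.0303). Bid alone was lost without control replicate 4, AKT1 KO replicate 3 or DKO replicate 3, and Bbc3 alone without AKT1 KO replicate 2 or DKO replicates 1 or 2 (adjusted p from 0.0503 to 0.108). Of the 15 processing alternatives listed at the end, 9 kept the Bid call and 12 the Bbc3 call. Against AKT2 KO limma called 6 higher (Bax 0.64, Bok 0.98, Bcl2 0.95, Bcl2l1 1.12, Bid 0.49, Bbc3 0.88) and none lower, with 42.1% of all genes called and 23.5% called higher. Bcl2l11 was called lower there without DKO replicate 1 (-0.67, limma adjusted p = 0.0368) or DKO replicate 2 (-0.74, adjusted p = 0.0148). It stayed uncalled in 9 of the 15 processing alternatives. In the rest it was called lower, as with quantile normalization (limma adjusted p = 0.0441) and the authors' values (0.0439). Mcl1 was called higher without DKO replicate 3 (0.42, limma adjusted p = 0.000638). Between AKT2 KO and AKT1 KO limma called 0 of 10, with 0.896% of all genes called and 0 members at an unadjusted p under 0.05; the largest difference was -0.37 in Bcl2.

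For 3 members the double loss gave more than the sum of the single losses. The departure from additivity is the DKO change minus the sum of the 2 single knockout changes, and limma called it for 26% of all genes, 15.9% in the upward direction. For Bax the single changes summed to -0.19 and the DKO change was 0.56, a departure of 0.74 (SE 0.12, adjusted p = 0.000596). For Bok they summed to -0.27 against 0.90, a departure of 1.17 (SE 0.19, adjusted p = 0.000540). For Bcl2l1 they summed to -0.25 against 1.10, a departure of 1.34 (SE 0.46, adjusted p = 0.0432).

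The 3 departures did not rest on the arrays equally. On the other 2 kept Bcl2l1 probes the departure was 0.87 and 0.77 (limma adjusted p over all kept probes 0.186 and 0.323). The mean of the kept probes lost the Bcl2l1 call (0.99, adjusted p = 0.134), as did the fit with no filter on dim probes (adjusted p = 0.0911). It was also lost without any one of the 4 control arrays, the 4 AKT2 KO arrays or AKT1 KO replicates 1, 2 and 4 (adjusted p from 0.0554 to 0.0750). Without DKO replicate 3 it was 0.86, and limma then called 6 members at a background of 35%: Bax, Bok, Bcl2l1, Bbc3 (1.12, adjusted p = 0.000574), Bcl2 (0.66, adjusted p = 0.0459) and Mcl1 (0.42, adjusted p = 0.00829). For Bcl2 over all arrays the single changes summed to 0.75 against a DKO change of 1.13, and the departure of 0.39 was not called (95% confidence interval -0.32 to 1.10, adjusted p = 0.415).

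The order of the 4 group means put DKO first in 8 members and last in Bcl2l11 and Bad. For Bax, Bok and Bcl2l1 the order from low to high was AKT1 KO, AKT2 KO, control and DKO, and the lower 3 did not differ beyond their spread (limma called none of those differences). For Bid it was control, AKT2 KO, AKT1 KO and DKO, and for Bbc3 AKT2 KO, control, AKT1 KO and DKO, in both with only steps to DKO called. Bad and Mcl1 had group means within 0.11 and 0.30 of control, with no step called. Bak1 ran from AKT1 KO through control and AKT2 KO to DKO and Bcl2l11 from DKO through AKT1 KO and control to AKT2 KO, also with no step called.

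Around the family, 6 lists of cell death genes held 118 genes, of which 106 were tested. In DKO against control limma called 54 of these (50.9%, beside 45.6% of all genes), 31 higher and 23 lower. Without DKO replicate 3 it called 53 of the 106, with 51.1% of all genes called. In AKT1 KO it called 0 of 106, with 4 at an unadjusted p under 0.05, and in AKT2 KO 0 of 106, with 7. The median DKO change was 0.06 over the 106 genes. Marker lists moved in the same hearts, as given above, and their part was not tested.

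Of the other BCL2-related genes 5 of 12 tested rose and 1 fell (50% called, beside 45.6% of all genes). Bnip3, a hypoxia-induced mitochondrial protein that takes part in mitophagy, rose by 1.19 (SE 0.11, limma adjusted p = 1.78e-06), its relative Bnip3l by 0.35 (adjusted p = 0.000857) and the BH3-only gene Bik by 0.77 (adjusted p = 0.000120). Bcl2l12 fell by 0.48 (adjusted p = 0.00568). The list had 4 higher and 1 lower without DKO replicate 3, with 51.1% of all genes called.

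In the apoptosome and caspase list 4 of 18 rose and 5 fell (50% called, beside 45.6% of all genes). The genes of cytochrome c (Cycs, -0.67) and of the apoptosis-inducing factor (Aifm1, -0.78), which both work in respiration while inside mitochondria, were lower, and the caspases Casp12 (0.85) and Casp2 (0.64) were higher; the limma adjusted p values ran from 1.93e-05 to 7.63e-05. In the death receptor list 6 of 15 rose and 1 fell (46.7% called, beside 45.6% of all genes). Without DKO replicate 3 the counts were 9 and 1, with 51.1% of all genes called. Tnfrsf12a, the receptor of the cytokine TWEAK, rose by 2.22 (SE 0.19, adjusted p = 6.01e-07). Cyld, a deubiquitinase, rose by 0.58, the TNF receptor Tnfrsf1a by 0.61 and its adaptor Tradd by 0.36.

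Of 20 genes known as p53 targets, 7 rose and 2 fell (45% called, beside 45.6% of all genes). Cdkn1a, the cell cycle inhibitor p21, rose by 2.10 (SE 0.41, limma adjusted p = 0.000778), Perp by 1.02 and Phlda3, an inhibitor of AKT, by 0.90. Ccng1 fell by 1.41 (SE 0.12, adjusted p = 8.55e-07). The members Bax and Bbc3 are p53 targets as well and are not counted in that list. In the list of the mitochondrial pore and voltage-dependent anion channels 1 of 14 rose and 8 fell, with a median of -0.33. That is 64.3% called, beside 45.6% of all genes, and 21.2% of all genes were called lower. Without DKO replicate 3 the list had 1 higher and 7 lower, with a median of -0.25 and 51.1% of all genes called. Opa1, which fuses inner membranes, fell by 0.91 (SE 0.11, adjusted p = 1.28e-05), the channel Vdac1 by 0.41 and hexokinase Hk2, which binds that channel, by 0.69, while the cholesterol transporter Tspo rose by 1.13. Cardiomyocyte markers were lower in the same hearts, as given above.

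In the list of Bad phosphorylation, Mcl1 turnover and Bok partners 8 of 27 rose and 6 fell (51.9% called, beside 45.6% of all genes). Fbxw7, a ubiquitin ligase subunit that marks Mcl1 for degradation, fell by 1.25 (SE 0.09, limma adjusted p = 8.27e-08). Sfn, a 14-3-3 protein, rose by 0.92, Itpr3, an inositol trisphosphate receptor of the family to which Bok binds, rose by 0.36, and Ppp3cb, a subunit of the Bad phosphatase calcineurin, fell by 0.38. Without DKO replicate 3 the counts were 6 and 6, with 51.1% of all genes called.

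**Figure D5:**
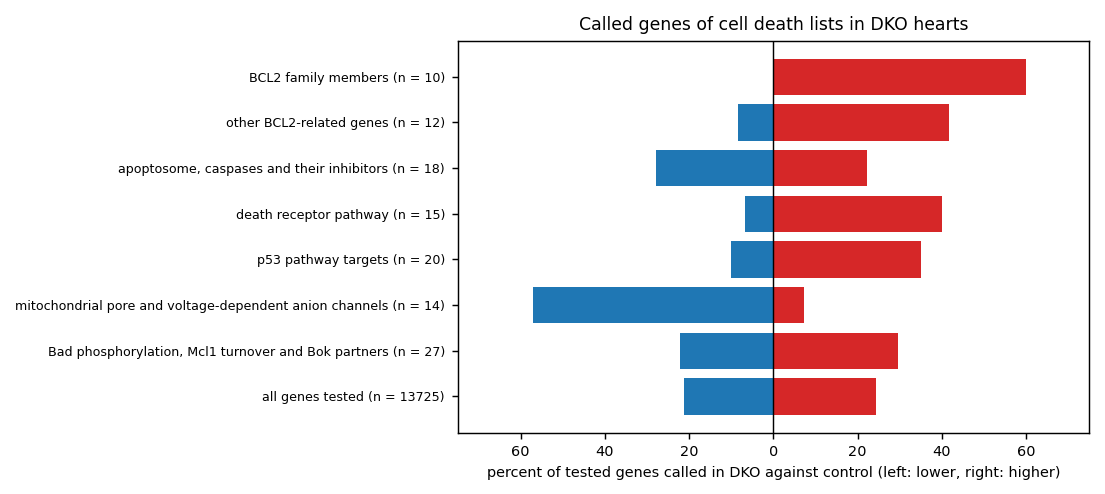
Percent of tested genes called in DKO against control, lower to the left and higher to the right, for the 10 BCL2 family members, the 6 cell death lists and all 13725 genes (bars start at 0). The members have 6 of 10 called higher and none lower, and the mitochondrial pore list has 8 of 14 called lower. Of all genes 24.4% were called higher and 21.2% lower.

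For each called member the 3 named genes with the highest Pearson correlation of levels over the 16 arrays were listed as a description. Genes with no proper name were passed over, so such a gene may lie closer. The arrays share the split between DKO and the rest, which alone makes such values high. Among named genes, Bax was followed most closely by Clic1 (r = 0.97), Set and Rpl34-ps1, a pseudogene that may read its parent gene. Bok was followed by Fhl1 (r = 0.98), Atp13a1 and Txndc5. Bcl2 was followed by Ccdc68 (r = 0.92), Gcnt1 and Upp1, Bid by Tgm2 (r = 0.89), Ergic1 and Shb, and Bbc3 by Crispld2 (r = 0.95), Igsf3 and Otub2. Bcl2l1 was followed by Cyb561 (r = 0.99, and 0.95 without DKO replicate 3), Morf4l2 and Slc39a6. With group means removed, and DKO replicate 3 included, these r values lay between 0.63 and 0.99. Without DKO replicate 3, and with group means left in, they lay between 0.80 and 0.97. Values without both were not computed.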

How the data were processed

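The files are scanner output of 1-colour Agilent mouse arrays, 1 per heart, and 1 table of processed values. Per the file headers, the authors used Agilent Feature Extraction 12.0.3.1, whose intensity columns are already background-subtracted. The deposited table holds log2 values that the authors centred on each probe's median; its scaling is not stated, and its direction follows the scanner values (correlation per array 0.916 to 0.996). Accessions of probes were matched without versions to RefSeq genes (GRCm38.p6), which named 32994 of 56605 probes (58.3%).

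Each array's intensity was scaled to its 75th percentile after log2. Probes had to be well above background throughout at least 1 group of 4, 118 with outlier flags were dropped, and the brightest of a gene's probes stood for it (13725 genes). limma 3.58.1 in R 4.3.3 fitted 1 mean per group (12 residual and 2.54 prior degrees of freedom) with Benjamini-Hochberg adjustment at 0.05, and was tested on simulated data. The 10 members are all named; of each list up to 4 called genes with the smallest adjusted p are named. The members and lists were chosen with earlier results of these data known. The number of arrays limits the precision.

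Replicate numbers from the titles were not taken to pair hearts across groups. Same-numbered deviations correlated between -0.35 and 0.39. They were all positive for replicate 2 (0.14 to 0.39) and replicate 4 (0.06 to 0.31), and differently numbered hearts were not compared. Alternatives were normexp (offset 50, on the median pixel signal), quantile or median scaling, the authors' values, no or a stricter filter, the mean of a gene's probes, slide, slide and row or replicate blocks, fits within a slide, only the groups compared, array quality weights, a trended robust prior, and leaving out each array. Leaving out AKT1 KO replicate 1 and DKO replicate 3 together was added after seeing the data.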

Additional observations from a re-analysis of the deposited data

Results flagged for a closer look

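In groups of 4 hearts, 8 values lay far from the other 3 by Dixon's measure, the gap to the nearest heart over the group's range, which chance exceeds in about 1 of 20 groups; 40 groups were looked at. DKO replicate 3 gave 5 of them: Bok at -0.38, Bcl2l1 at 5.73 and Bad at 3.15 were the highest of the DKO hearts, and Bcl2 at 0.61 and Mcl1 at 4.54 the lowest. The others were Bak1 at 1.85 in control replicate 1, Bcl2 at 0.37 in control replicate 4 and Bok at -1.97 in AKT2 KO replicate 3.

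The change with Akt2 targeting differed with and without Akt1 targeting in 3 of the 10 members by limma's interaction term. That term was called for 26% of all genes, 15.9% in the upward direction. The difference was 0.74 in Bax (limma adjusted p = 0.000596), 1.17 in Bok (adjusted p = 0.000540) and 1.34 in Bcl2l1 (adjusted p = 0.0432). The Bcl2l1 value was 0.86 without DKO replicate 3.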

How the results depend on the processing

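Of 224 recomputed counts of called members 213 kept their side of the 1.5-fold limit. Of 2240 recomputed changes of single members 2130 kept their status, either called in the same direction or not called in both fits. The sign of a change that neither fit called was not compared. Of the rest 54 lost a call, 56 gained one and 0 reversed a called direction. With array quality weights limma called 1 member in AKT1 KO against control and 5 for additivity, where it called 5.99% and 44.8% of all genes. Fitted on the 2 groups of a comparison alone, it called 1 in AKT1 KO against control and 3 in DKO against AKT1 KO (1.33% and 30.6% of all genes). In DKO against control and in DKO against AKT2 KO that fit called 4 members each, where the main fit called 6. It called 38.5% and 31.4% of all genes there. With no filter on dim probes the count in DKO against AKT1 KO was 3 (24.9% of all genes). Within slide 2, with 2 hearts per group, 3 members were called in DKO against control and 0 for additivity (18% and 1.37% of all genes). Leaving out each array in turn gave 6 to 8 members in DKO against control (38.4% to 51.1% of all genes). It gave 3 to 6 in DKO against AKT1 KO (41.2% to 53.7% of all genes) and 6 to 7 in DKO against AKT2 KO (35.6% to 47.5%). For additivity it gave 2 to 6 (21.1% to 35% of all genes), and in the other 3 comparisons 0 to 0 (0.102% to 2.39%). Leaving out both AKT1 KO replicate 1 and DKO replicate 3, chosen after seeing the data, gave 5 for additivity (38.8% of all genes). The replicate block left the counts at 6 in DKO against control and 3 for additivity (46.2% and 25.4% of all genes). The replicate numbers were not taken to pair the hearts. The cause of these changes was not tested. Signal limits the dim probes: 3 of 19 member probes were too close to background to be used.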
